A study of Mus musculus with 8 samples.

Results

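The Slc25 family consists of the mitochondrial solute carriers, here taken as every gene whose symbol starts with Slc25a. The deposited tables listed 44 such genes among 22552, with FPKM (fragments scaled by transcript length and by the mapped fragments of the library) summed over the transcripts of each gene. Of these, 31 passed a filter of at least 1 FPKM in at least 2 libraries and were tested among 8958 genes. Uncoupling proteins, which are related carriers under Ucp symbols, were not counted as members.

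The RNA came from females 6 weeks of age, whose strain is given as C57B/6 UCP1-TRAP. In these mice the ribosomes of cells that use the Ucp1 gene carry a GFP tag, and their mRNA is pulled down with an antibody against GFP, so every library holds RNA bound by tagged ribosomes plus whatever else was carried along. Every group shared the same history: breeding at 30 °C, weaning to room temperature at 3 weeks of age, 4 °C from 4 weeks of age and sampling after 2 weeks of cold, and no library of mice kept warm was used here. There were 3 libraries of inguinal white adipose tissue (WAT), 2 of perigonadal WAT and 3 of brown adipose tissue (BAT). Beige adipocytes is the usual name for UCP1-positive cells that appear in white depots in the cold, and the comparisons ask how they differ from brown adipocytes and from each other. The labels do not say whether the libraries came from separate mice or pools, so p-values measure the spread between these libraries, which may be technical.

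Members of the Slc25 family share a fold built from repeats of a short carrier motif and sit, with few exceptions, in the inner mitochondrial membrane. Each moves a small set of metabolites, such as ADP and ATP, phosphate, citrate, acylcarnitines or amino acids, between the cytosol and the mitochondrial matrix. In fat, the citrate carrier delivers mitochondrial citrate for fatty acid synthesis, while the acylcarnitine carrier brings fatty acids in for the oxidation that feeds heat production.

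Depth, as estimated fragments on listed genes, ran from 273560 to 569331 per inguinal library, was 1173604 and 626060 in the perigonadal pair and ran from 368640 to 408317 per BAT library, with inguinal replicate 3 the shallowest. The totals of FPKM over all genes ranged from 75925 in inguinal replicate 3 to 206549 in perigonadal replicate 1, so values are given as deposited and also after median-ratio scaling, which divided the libraries by factors of 0.561 to 1.67 found from 5014 genes. Before scaling the tested genes had a median difference on the log2 scale of 0.03 in inguinal WAT minus BAT and 0.52 in perigonadal WAT minus BAT. After scaling these medians were 0.03 and 0.09. Group means of the 11 thermogenic adipocyte markers, Ucp1 among them, all reached 1 FPKM in the 3 groups, but 2 of them, the respiratory chain subunits Cox8b and Cox7a1, were called lower in inguinal WAT against BAT on both scales. In perigonadal WAT against BAT 2 were called higher (Fabp4 and Plin1) and 1 lower (Cox7a1) as deposited, and 2 lower (Cox8b and Cox7a1) after scaling. Cox8b had 866, 767 and 343 FPKM in inguinal WAT, 850 and 835 FPKM in perigonadal WAT and 1728, 1896 and 1332 FPKM in BAT. Ucp1 itself had 1417, 1302 and 592 FPKM in inguinal WAT, 1593 and 1282 FPKM in perigonadal WAT and 1410, 1575 and 1313 FPKM in BAT. After scaling its log2 difference was -0.44 in inguinal WAT against BAT and -0.58 in perigonadal WAT against BAT (limma adjusted p = 0.119 and 0.0609), and it was called on neither scale.

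The promoters of the pair of carriers that differed most, Slc25a1 and Slc25a10, are shown with that of Slc25a3, an abundant carrier with a narrow range. Each line holds the 250 bases before the start of the gene on its own strand, 5′ to 3′, from RefSeq on GRCm38.p6, and capitals mark matches on either strand of CACGTG (the E-box), TGACG (the cAMP response half-site) or CCAAT (the CCAAT box, or ATTGG on the other strand). The windows lie on the minus strand at chr16:17928220-17928469 for Slc25a1, on the plus strand at chr11:120491587-120491836 for Slc25a10 and on the minus strand at chr10:91123968-91124217 for Slc25a3.
Slc25a1: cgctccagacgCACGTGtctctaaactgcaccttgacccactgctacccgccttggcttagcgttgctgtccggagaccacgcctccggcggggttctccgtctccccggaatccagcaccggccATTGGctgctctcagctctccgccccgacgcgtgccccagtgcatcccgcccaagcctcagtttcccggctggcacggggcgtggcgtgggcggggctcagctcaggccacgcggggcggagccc
Slc25a10: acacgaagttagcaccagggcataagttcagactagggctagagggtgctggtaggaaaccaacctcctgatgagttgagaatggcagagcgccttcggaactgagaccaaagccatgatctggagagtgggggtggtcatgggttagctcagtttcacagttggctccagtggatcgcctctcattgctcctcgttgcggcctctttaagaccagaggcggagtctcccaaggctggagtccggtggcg
Slc25a3: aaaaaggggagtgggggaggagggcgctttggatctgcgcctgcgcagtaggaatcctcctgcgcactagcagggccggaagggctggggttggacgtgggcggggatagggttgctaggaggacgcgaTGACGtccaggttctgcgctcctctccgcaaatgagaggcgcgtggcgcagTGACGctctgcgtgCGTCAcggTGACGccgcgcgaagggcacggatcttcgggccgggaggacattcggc
The window of Slc25a1 held 1 CACGTG and 1 CCAAT, that of Slc25a3 held 4 TGACG, and that of Slc25a10 held none of the motifs searched, AAGGTCA and GCGCATG included. CACGTG stood in 8 of 43 windows of 34 members with a window in the table, or 18.6 percent, and in 6.02 percent of all 32851 windows. TGACG stood in 23.3 percent of member windows and 17.8 percent of all, CCAAT in 46.5 and 33.8 percent, AAGGTCA in 2.33 and 4.08 percent, and GCGCATG in 2.33 and 3.24 percent. Several windows can belong to 1 gene, and the median GC content was 56.8 percent in member windows and 52.4 percent in all. A match describes letters in this window and does not show that a factor binds there.

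The family's RNA was dominated by a few carriers (heat map of tested members). Its summed FPKM was 1074, 1106 and 558 in inguinal WAT, 1448 and 1210 in perigonadal WAT and 785, 800 and 774 in BAT. After scaling the sums drew together, at 911, 997 and 995 in inguinal WAT, 866 and 1063 in perigonadal WAT and 833, 862 and 866 in BAT. The family took 0.735, 0.786 and 0.735 percent of all FPKM in inguinal WAT, 0.701 and 0.818 percent in perigonadal WAT and 0.606, 0.615 and 0.633 percent in BAT. In every white library that share was above every BAT library. The share includes Slc25a1, which held 15.2 to 27.8 percent of the family in inguinal WAT, 23.5 and 27.4 percent in perigonadal WAT and 4.00 to 4.77 percent in BAT. Without Slc25a1 this order did not hold. Perigonadal replicate 1 then had 1107 of 206549 FPKM, a smaller part than the 740 of 122258 FPKM in BAT replicate 3. Inguinal replicate 1, with 911 of 146254 FPKM, still had the largest part.

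**Figure D1:**
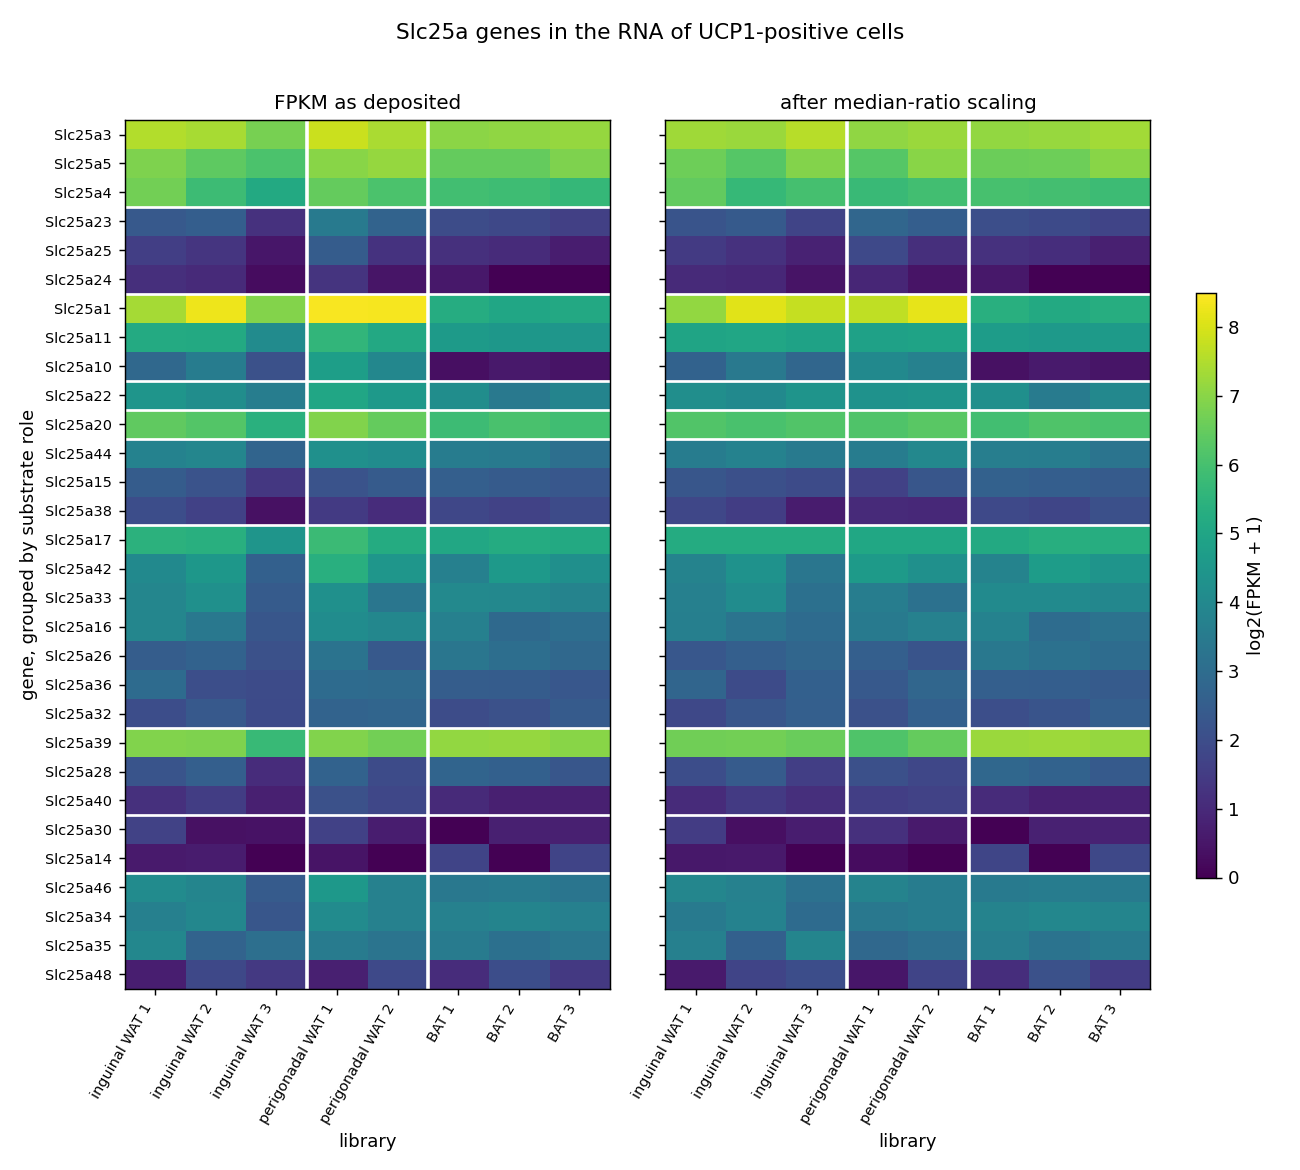
Each row is a tested Slc25a gene, grouped by the solute it carries, and each column a library, inguinal WAT first, then perigonadal WAT and BAT. Color is log2(FPKM + 1), as deposited on the left and after median-ratio scaling on the right. Slc25a1 and Slc25a10 are paler in all 5 white libraries than in the 3 BAT libraries, and inguinal replicate 3 is darker for most rows before scaling.

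The 5 most abundant members of a library held 63.0 to 69.4 percent of the family's FPKM. Slc25a1, the mitochondrial citrate carrier, was the first or second member in each white library and seventh or eighth in BAT. Its share of the family was 15.2, 27.8 and 21.5 percent in inguinal WAT, 23.5 and 27.4 percent in perigonadal WAT and 4.77, 4.00 and 4.42 percent in BAT. In BAT the first place was held by Slc25a39, which brings glutathione into mitochondria, in replicates 1 and 2, and by Slc25a3, the phosphate carrier that supplies ATP synthase, in replicate 3. Slc25a3 was first or second in all 8 libraries. Without Slc25a1 the family summed to 911, 798 and 438 FPKM in inguinal WAT, 1107 and 878 FPKM in perigonadal WAT and 747, 768 and 740 FPKM in BAT, with the inguinal range enclosing that of BAT.

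**Figure D2:**
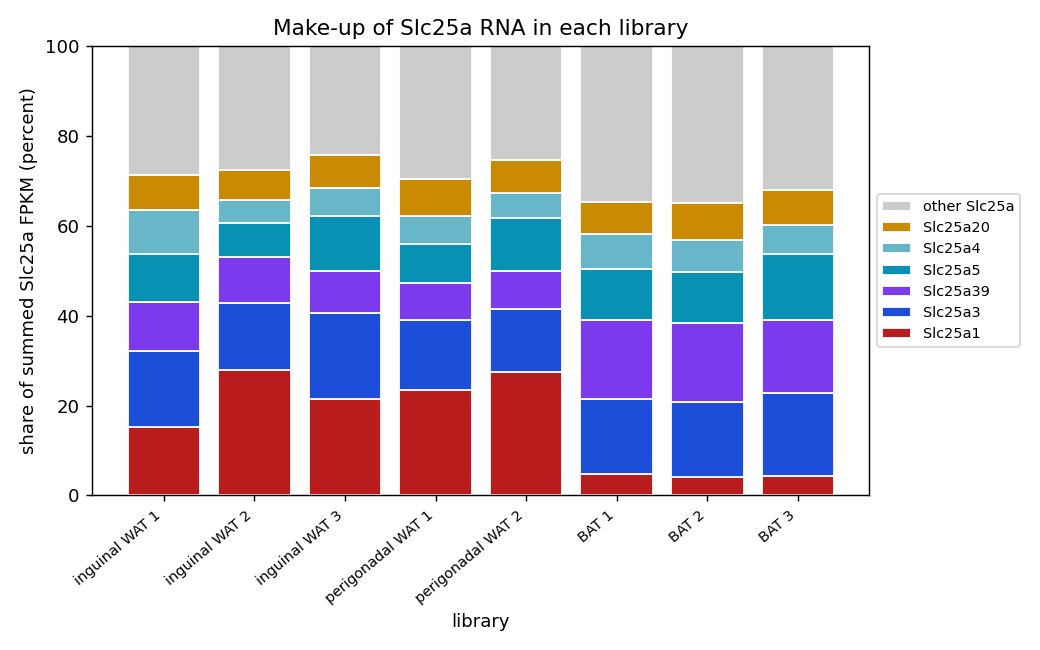
Stacked bars give the percent of each library's summed Slc25a FPKM held by 6 abundant carriers and, in grey, by all others, from 0 to 100 percent. The red Slc25a1 segment is 15.2 to 27.8 percent in the 5 white libraries and 4.00 to 4.77 percent in the 3 BAT libraries.

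Among carriers of citrate and dicarboxylates, Slc25a1 and Slc25a10 were far higher in both white depots than in BAT. These were the only 2 of 31 tested members called (adjusted p under 0.05, limma with Benjamini-Hochberg adjustment over all genes) in inguinal WAT against BAT, both higher, or 6.45 percent of the members. Over all 8958 genes 2.2 percent were called, 1.73 percent higher and 0.469 percent lower. Perigonadal WAT against BAT gave the same count of 2 members, both higher, where 5.18 percent of all genes were called, 4.91 percent higher and 0.268 percent lower. After median-ratio scaling inguinal WAT again gave 2 members, where 4.88 percent of all genes were called (3.35 percent higher and 1.53 percent lower), while perigonadal WAT gave 4, 2 higher and 2 lower, or 12.9 percent of the members, where 6.16 percent of all genes were called (3.16 percent higher and 3.0 percent lower).

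Slc25a1, at chr16:17925304-17928312 on the minus strand (mm9, the build of the files), had 163, 308 and 120 FPKM in inguinal WAT, 341 and 332 FPKM in perigonadal WAT and 37.4, 32.0 and 34.2 FPKM in BAT. Every white library was above every BAT library, and the inguinal libraries spread widely while the BAT libraries lay close together. The means were 197 ± 98.4 FPKM in inguinal WAT (SD, n = 3), 336 ± 6.23 in perigonadal WAT (n = 2) and 34.5 ± 2.71 in BAT (n = 3). The ratio of means was 5.70 for inguinal WAT against BAT and 9.74 for perigonadal WAT against BAT as deposited, and 5.60 and 6.61 after scaling. On the log2(FPKM + 1) scale, which understates changes of low genes, the differences were 2.37 (SE 0.36, limma adjusted p = 2.15e-06) and 3.25 (SE 0.40, adjusted p = 6.30e-09), and after scaling 2.40 (SE 0.24, adjusted p = 0.000448) and 2.67 (SE 0.27, adjusted p = 0.000714). These values rest on 472 to 1170 estimated fragments per inguinal library, 1703 and 1367 in perigonadal WAT and 120 to 126 in BAT.

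Slc25a10, the dicarboxylate carrier that exchanges malate and succinate for phosphate, lies at chr11:120353151-120362475 on the plus strand (mm9). It had 6.39, 10.8 and 3.34 FPKM in inguinal WAT, 26.0 and 14.2 FPKM in perigonadal WAT and 0.274, 0.481 and 0.361 FPKM in BAT. The 3 groups did not overlap, with perigonadal WAT highest and BAT under 1 FPKM throughout, so the gene passed the filter only through the white depots. The BAT values rest on 2, 4 and 3 fragments, against 55, 91 and 29 in inguinal WAT and 295 and 126 in perigonadal WAT. As deposited the pooled ratio was 18.2 for inguinal WAT against BAT (95 percent counting interval 9.35 to 40.4) and 55.4 for perigonadal WAT against BAT (28.9 to 122), intervals that cover counting error only. After scaling the ratios of group means were 17.4 and 34.6. The log2(FPKM + 1) differences were 2.40 (SE 0.41, limma adjusted p = 2.13e-05) and 3.89 (SE 0.45, adjusted p = 9.34e-10), and after scaling 2.48 (adjusted p = 0.00036) and 3.41 (adjusted p = 0.000174).

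Both genes kept their calls with any 1 library left out, with limma adjusted p-values of at most 0.000349 for Slc25a1 and 0.00241 for Slc25a10 in inguinal WAT against BAT. Slc25a10 entered these fits only through the white depots where it is high, so its calls are not independent support for that direction. With no filter on low values the inguinal calls ended, at adjusted p = 0.0842 for Slc25a1 and 0.0907 for Slc25a10, and 9 genes in all were then called in that comparison.

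Slc25a11, which exchanges oxoglutarate for malate, had 36.1, 34.9 and 16.3 FPKM in inguinal WAT, 47.5 and 33.8 FPKM in perigonadal WAT and 23.6, 21.5 and 21.2 FPKM in BAT. Inguinal replicate 3 was below BAT before scaling. After scaling the 5 white libraries, at 28.4 to 31.5, were all above the BAT libraries, at 23.2 to 25.05, but the gene was not called on either scale. The fourth carrier of this group, Slc25a21, which moves oxoadipate, was at 0 except for 0.243 FPKM in inguinal replicate 2 and was not tested.

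Most enzymes listed on the route from mitochondrial citrate to fatty acids were, like Slc25a1, higher in both white depots than in BAT. Of the 8 genes listed for citrate export and fatty acid synthesis, all tested, 5 rose and none fell in inguinal WAT against BAT, where 1.73 percent of all genes rose. In perigonadal WAT against BAT 7 of them rose and none fell, where 4.91 percent of all genes rose. After scaling 7 rose and none fell in each, where 3.35 and 3.16 percent of all genes rose. Their median log2(FPKM + 1) difference was 2.54 in inguinal WAT and 3.42 in perigonadal WAT, against 0.03 and 0.52 over all genes. The list was drawn up with earlier results of these data known, so its count is not independent evidence of direction. Without the filter on low values 2 of the 8 were called in inguinal WAT.

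Acly, which splits cytosolic citrate into acetyl-CoA and oxaloacetate, had 189, 320 and 175 FPKM in inguinal WAT, 449 and 449 FPKM in perigonadal WAT and 12.6, 22.2 and 27.9 FPKM in BAT. Me1, the malic enzyme that makes NADPH from malate, had 271, 333 and 201 FPKM in inguinal WAT, 469 and 405 FPKM in perigonadal WAT and 39.5, 40.9 and 40.8 FPKM in BAT. For both genes no white library reached down to BAT. The log2(FPKM + 1) differences of Acly were 3.40 in inguinal WAT against BAT and 4.43 in perigonadal WAT against BAT (limma adjusted p = 4.82e-11 and 1.12e-13), and those of Me1 were 2.67 and 3.40 (adjusted p = 1.56e-08 and 2.77e-10). Fasn, fatty acid synthase, differed by 3.13 and 4.24 (limma adjusted p = 5.31e-11 and 3.07e-14), and the desaturase gene Scd1 by 3.14 and 5.23 (limma adjusted p = 7.50e-12 and 1.41e-19). Cs, the citrate synthase of the matrix, had 243, 179 and 107 FPKM in inguinal WAT, 282 and 252 FPKM in perigonadal WAT and 137, 143 and 165 FPKM in BAT, and was not called in either comparison (limma adjusted p = 0.995 and 0.184).

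**Figure D3:**
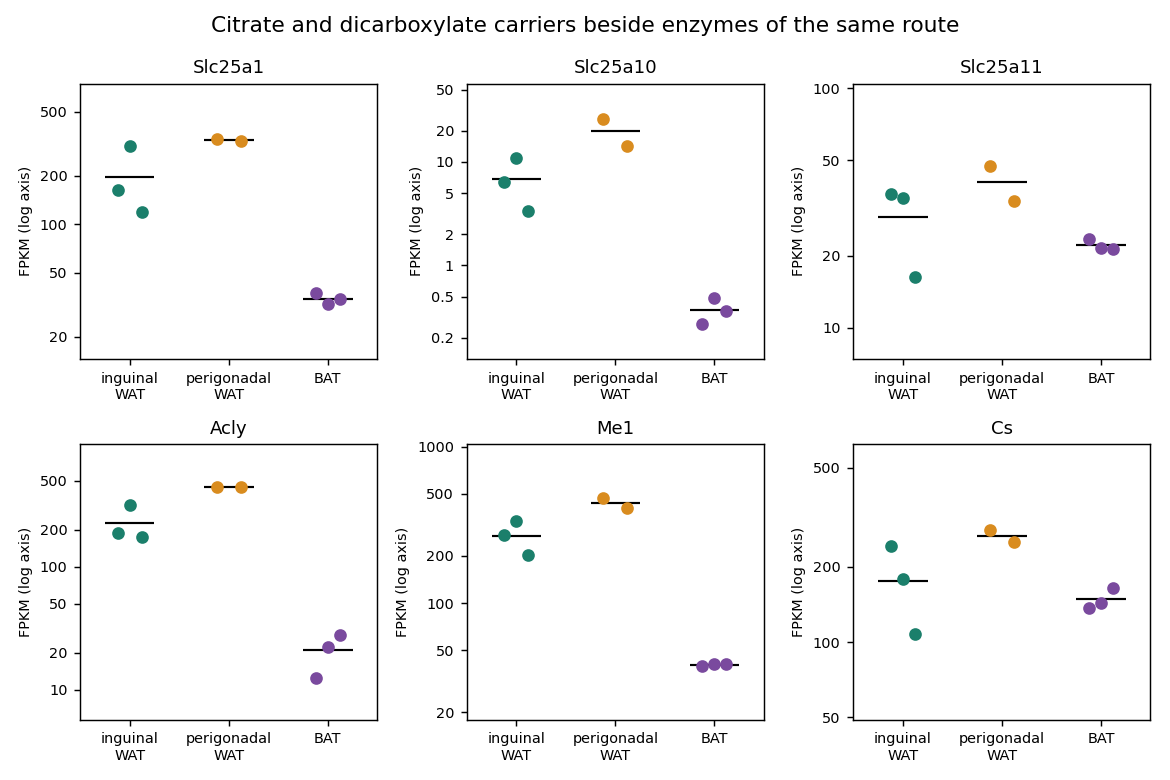
Points are libraries and bars group means of FPKM on log axes, with inguinal WAT, perigonadal WAT and BAT from left to right. Slc25a1, Slc25a10, Acly and Me1 show every white library above every BAT library, while for Slc25a11 and Cs inguinal replicate 3 lies below all BAT libraries.

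Markers of other cells differed between the depots, mainly in inguinal WAT. Against BAT as deposited, 7 of 10 tested mammary, 4 of 5 basal and 4 of 6 smooth muscle markers were called higher in inguinal WAT. In perigonadal WAT those counts were 0, 1 (Oxtr) and 0, and the mammary marker Csn3 was called lower. Over all genes 1.73 percent were called higher in inguinal WAT and 4.91 percent in perigonadal WAT. The summed level of 14 mammary luminal and milk markers was 99.3 to 123 FPKM in inguinal WAT, 2.58 to 3.36 FPKM in perigonadal WAT and 7.02 to 22.3 FPKM in BAT, where 12 of them, Krt8, Krt18 and Epcam included, were at 0 in all 3 libraries. The 5 basal markers summed to 10.8 to 29.0 FPKM in inguinal WAT, 4.87 to 5.76 FPKM in perigonadal WAT and 0 in BAT. Oxtr alone, at 5.49 and 3.62 FPKM, made up most of the perigonadal basal sum. The 8 smooth muscle markers summed to 42.5 to 135 FPKM in inguinal WAT, 8.16 to 15.8 FPKM in perigonadal WAT and 7.40 to 8.43 FPKM in BAT. Des, at 6.83 to 7.77 FPKM, made up most of that BAT sum, and had 2.98 to 6.75 FPKM in inguinal WAT. Csn3, a casein, had 7.02, 13.1 and 22.0 FPKM in BAT and made up nearly all of the mammary sum there, against 0.482 and 1.39 FPKM in perigonadal WAT, where Krt8 had 0.981 and 0.202 FPKM. The 6 endothelial markers summed to 1.27 to 4.07 FPKM in inguinal WAT, 7.27 to 11.9 FPKM in perigonadal WAT and 2.496 to 3.504 FPKM in BAT. Of the 2 endothelial markers tested, Emcn was called higher in perigonadal WAT against BAT on both scales. The part of such cells in the values of either white depot was not tested, and in these purified samples fewer cells of a type and less RNA per cell cannot be told apart.

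The ADP/ATP and phosphate carriers, which serve ATP synthase, were abundant in all 3 depots, and none of the 3 tested was called in any comparison on either scale. Slc25a3 had 183, 165 and 107 FPKM in inguinal WAT, 225 and 170 FPKM in perigonadal WAT and 130, 135 and 142 FPKM in BAT. Slc25a5, the ADP/ATP translocase of dividing and many other cells, had 115, 82.9 and 67.8 FPKM in inguinal WAT, 127 and 142 FPKM in perigonadal WAT and 89.0, 89.8 and 114 FPKM in BAT. Slc25a4, the translocase typical of heart and muscle, had 103, 56.2 and 35.2 FPKM in inguinal WAT, 89.0 and 67.4 FPKM in perigonadal WAT and 60.2, 56.5 and 49.9 FPKM in BAT. Perigonadal WAT was above BAT for all 3 before scaling, as it was for 48.3 percent of all tested genes, and after scaling the groups overlapped for each of them.

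Slc25a4 made up 47.3, 40.4 and 34.2 percent of the sum of Slc25a4 and Slc25a5 in inguinal WAT, 41.2 and 32.2 percent in perigonadal WAT and 40.4, 38.6 and 30.5 percent in BAT. This share does not depend on scaling between libraries, and the 3 groups overlapped. The pair are close paralogs, and Cufflinks divides fragments between similar transcripts, so the split is uncertain. Slc25a31, the translocase of the testis, was listed at 0 in all 8 libraries.

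Of 15 tested ATP synthase genes none was called as deposited in either white depot against BAT. Over all genes 2.2 percent were called in inguinal WAT and 5.18 percent in perigonadal WAT. At an unadjusted p under 0.05, 1 and 3 of the 15 were higher and lower in inguinal WAT and 0 and 1 in perigonadal WAT. After scaling 2 fell in inguinal WAT and 6 fell in perigonadal WAT, where 1.53 and 3.0 percent of all genes fell. The most abundant of those that fell in perigonadal WAT were Atp5j2, Atp5l, Atp5o and Atp5e. Atp5j2, a membrane-sector subunit, had 478, 423 and 222 FPKM in inguinal WAT, 419 and 433 FPKM in perigonadal WAT and 666, 801 and 590 FPKM in BAT. Its scaled log2 difference was -0.91 in inguinal WAT against BAT and -1.26 in perigonadal WAT against BAT (limma adjusted p = 0.0188 and 0.00596). Atp5b and Atp5a1, catalytic-sector subunits, were called on neither scale. Atp5k, also listed, was left out of the test by the filter on transcript length. It had 320, 327 and 125 FPKM in inguinal WAT, 299 and 327 FPKM in perigonadal WAT and 691, 705 and 518 FPKM in BAT.

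Slc25a20, which carries acylcarnitines into the matrix in exchange for carnitine, had 85.5, 73.6 and 40.9 FPKM in inguinal WAT, 119 and 89.7 FPKM in perigonadal WAT and 56.1, 66.0 and 59.1 FPKM in BAT. After scaling it had 72.5, 66.3 and 73.0 in inguinal WAT, 71.0 and 78.8 in perigonadal WAT and 59.6, 71.2 and 66.2 in BAT. The highest scaled value was 1.32 times the lowest, the second narrowest range among the tested members, and the gene was not called. None of the 5 carnitine shuttle genes tested was called on either scale in white depots against BAT, among them Cpt1b and Cpt2, which load and unload carnitine. Over all genes 2.2 percent were called in inguinal WAT and 5.18 percent in perigonadal WAT as deposited, and 4.88 and 6.16 percent after scaling. As deposited, 0 of the 5 in inguinal WAT and 1 in perigonadal WAT, higher, had an unadjusted p under 0.05.

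Carriers of cofactors and nucleotides were next. Slc25a17, a peroxisomal carrier of coenzyme A and related cofactors, had 43.0, 40.1 and 20.7 FPKM in inguinal WAT, 54.2 and 36.8 FPKM in perigonadal WAT and 32.9, 36.8 and 34.6 FPKM in BAT. After scaling all 8 libraries lay between 32.4 and 39.6, a ratio of 1.22, the narrowest of the tested members. Slc25a42, the mitochondrial carrier of coenzyme A, had 15.5, 21.4 and 5.13 FPKM in inguinal WAT, 40.2 and 20.9 FPKM in perigonadal WAT and 12.1, 22.9 and 17.9 FPKM in BAT. Perigonadal replicate 1 stood highest and inguinal replicate 3 lowest, and the gene was not called. The pyrimidine nucleotide carriers Slc25a33 and Slc25a36, the folate carrier Slc25a32, the S-adenosylmethionine carrier Slc25a26 and Slc25a16 lay between 2.77 and 18.4 FPKM in all libraries and were not called.

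Slc25a39 was the most abundant carrier of the iron and glutathione group, with 117, 114 and 52.2 FPKM in inguinal WAT, 118 and 102 FPKM in perigonadal WAT and 139, 141 and 126 FPKM in BAT. After scaling it had 99.2, 103 and 93.1 in inguinal WAT, 70.7 and 89.4 in perigonadal WAT and 148, 152 and 141 in BAT. Every white library was below every BAT library on both scales, which as deposited held for 5.37 percent of all genes in inguinal WAT and 3.72 percent in perigonadal WAT, and after scaling for 10.5 and 16.4 percent. The scaled difference was -0.88 in perigonadal WAT against BAT (SE 0.16, limma adjusted p = 0.0117) and -0.57 in inguinal WAT against BAT (SE 0.15, adjusted p = 0.0501). As deposited the differences were -0.30 in perigonadal WAT and -0.60 in inguinal WAT (limma adjusted p = 0.638 and 0.766). The inguinal difference as deposited was -0.22 without inguinal replicate 3, and the perigonadal one was -0.19 without perigonadal replicate 2. The scaled perigonadal call was lost without perigonadal replicate 1, at a limma adjusted p of 0.126.

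**Figure D4:**
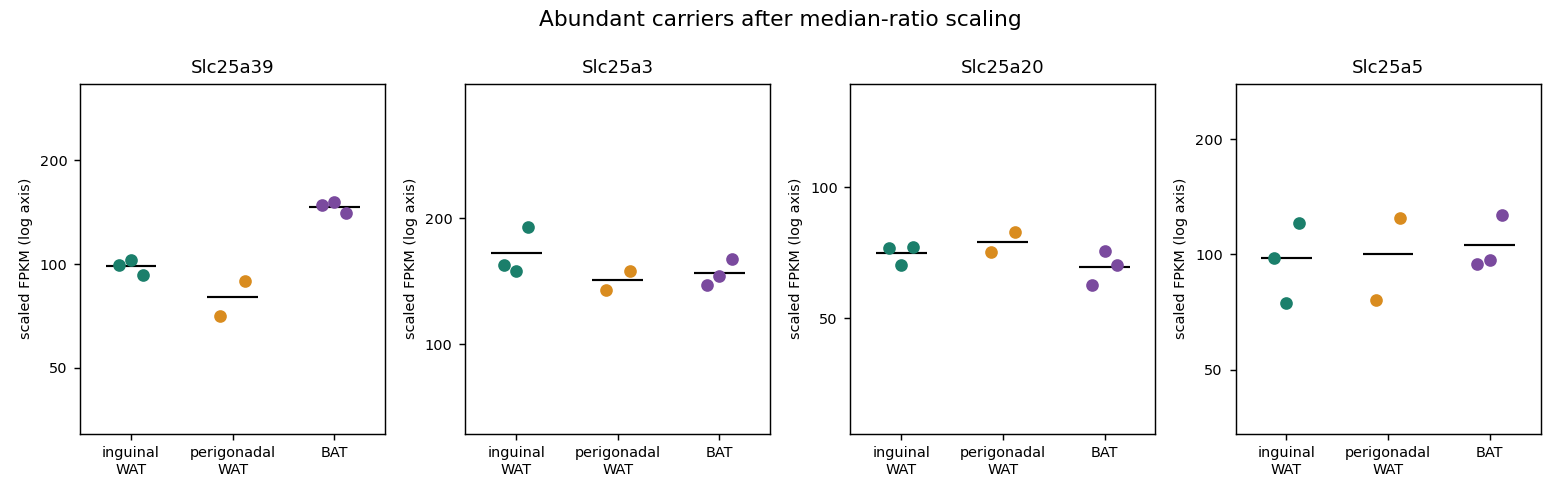
Points are libraries and bars group means of median-ratio scaled FPKM on log axes, with inguinal WAT, perigonadal WAT and BAT from left to right. For Slc25a39 all white libraries lie below BAT, while for Slc25a3, Slc25a20 and Slc25a5 the groups overlap.

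Slc25a40, a close relative of Slc25a39, was much scarcer, at 0.661 to 3.32 FPKM over all libraries. The mitoferrins, which import iron, were also low. Slc25a28, mitoferrin 2, had 3.59, 4.92 and 1.11 FPKM in inguinal WAT, 5.43 and 2.82 FPKM in perigonadal WAT and 5.73, 5.03 and 3.81 FPKM in BAT. Slc25a37, mitoferrin 1, which is high in developing red blood cells, had 0.807, 0.407 and 0.123 FPKM in inguinal WAT, 1.77 and 0.517 FPKM in perigonadal WAT and 0.755, 0.927 and 0.526 FPKM in BAT. Its value of 1.77 was the highest of any untested member. It held 7.64 to 18.4 percent of the mitoferrin sum in inguinal WAT, 24.6 and 15.5 percent in perigonadal WAT and 11.6 to 15.6 percent in BAT, with overlap.

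Of 15 tested genes of heme and iron-sulfur cluster synthesis, 1 fell as deposited in inguinal WAT against BAT, where 0.469 percent of all genes fell. None was called in perigonadal WAT, where 4.91 percent of all genes rose and 0.268 percent fell, and 1 was higher and 1 lower there at an unadjusted p under 0.05. The gene that fell was Bola3, an iron-sulfur cluster assembly factor, with 38.4, 53.5 and 23.1 FPKM in inguinal WAT, 52.6 and 42.4 FPKM in perigonadal WAT and 92.2, 112 and 77.5 FPKM in BAT. Both white groups lay below BAT. The log2(FPKM + 1) difference in inguinal WAT against BAT was -1.33 (SE 0.38, limma adjusted p = 0.0422), and this call was lost under 11 of 18 alternatives, among them leaving out inguinal replicate 1, either perigonadal library or any BAT library (adjusted p 0.0566 to 0.406). After scaling it was -1.31 in inguinal WAT against BAT and -1.53 in perigonadal WAT against BAT (limma adjusted p = 0.00377 and 0.00303).

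Amino acid carriers were of middle or low abundance, and none was called. Slc25a22, a glutamate carrier, had 20.4, 17.0 and 11.1 FPKM in inguinal WAT, 31.7 and 23.1 FPKM in perigonadal WAT and 16.8, 9.81 and 13.1 FPKM in BAT. The aspartate/glutamate carriers of the malate-aspartate shuttle were scarce. Slc25a12 had 0.434, 0.214 and 0.530 FPKM in inguinal WAT, 0.333 and 0.410 FPKM in perigonadal WAT and 1.41, 0 and 0.229 FPKM in BAT. Slc25a13 was above 0 only in inguinal replicate 1, at 0.846 FPKM, and perigonadal replicate 1, at 0.159 FPKM.

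Of 6 genes listed for the malate-aspartate and glycerol phosphate shuttles, 1 rose as deposited in perigonadal WAT against BAT, where 4.91 percent of all genes rose. None was called in inguinal WAT, where 1.73 percent of all genes rose and 0.469 percent fell, and 1 was higher there at an unadjusted p under 0.05. Mdh1, the cytosolic malate dehydrogenase, had 217, 156 and 105 FPKM in inguinal WAT, 219 and 188 FPKM in perigonadal WAT and 83.5, 79.8 and 79.7 FPKM in BAT. No white library overlapped BAT. The perigonadal log2(FPKM + 1) difference of 1.31 (SE 0.39, limma adjusted p = 0.031) was lost under 8 of 18 alternatives, among them leaving out any perigonadal or BAT library (adjusted p 0.0834 to 0.63). After scaling Mdh1 rose in both white depots against BAT, by 0.93 in inguinal WAT and 0.74 in perigonadal WAT (limma adjusted p = 0.00989 and 0.0389).

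Slc25a44, a carrier of branched-chain amino acids described in brown fat, had 12.7, 14.0 and 5.64 FPKM in inguinal WAT, 18.4 and 16.7 FPKM in perigonadal WAT and 10.8, 10.2 and 7.65 FPKM in BAT. Perigonadal WAT lay above the other groups as deposited, and after scaling the groups overlapped, at 10.1 to 12.6 in inguinal WAT, 10.99 and 14.7 in perigonadal WAT and 8.56 to 11.5 in BAT. None of the 7 tested genes of branched-chain amino acid breakdown, among them Dld and Bckdha, was called against BAT on either scale or had an unadjusted p under 0.05 as deposited. Over all genes 2.2 percent were called in inguinal WAT and 5.18 percent in perigonadal WAT as deposited, and 4.88 and 6.16 percent after scaling. The ornithine carrier Slc25a15 and the glycine carrier Slc25a38 stayed under 5 FPKM. Slc25a18, Slc25a29 and Slc25a2 were under 1 FPKM in all libraries and were not tested.

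The calcium-regulated ATP-Mg/phosphate carriers were led by Slc25a23, with 4.24, 4.76 and 1.30 FPKM in inguinal WAT, 10.1 and 5.55 FPKM in perigonadal WAT and 2.95, 2.56 and 2.09 FPKM in BAT. It made up 56.8 to 67.2 percent of the sum of Slc25a23, Slc25a24 and Slc25a25 in inguinal WAT, 63.0 and 75.7 percent in perigonadal WAT and 63.6 to 77.2 percent in BAT. Slc25a25 had 2.02, 1.48 and 0.430 FPKM in inguinal WAT, 4.5 and 1.38 FPKM in perigonadal WAT and 1.24, 1.08 and 0.616 FPKM in BAT. Slc25a24 had 1.22, 1.02 and 0.203 FPKM in inguinal WAT, 1.45 and 0.404 FPKM in perigonadal WAT and 0.446, 0 and 0 FPKM in BAT. Slc25a23 was the leading carrier of this group in every library, and none of the 3 was called. Slc25a41 was above 0 only in perigonadal replicate 1, at 0.286 FPKM.

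The uncoupling protein homologues named for brain and kidney were rare in these cells. Slc25a30 lay at 0.310 to 2.16 FPKM in inguinal WAT, 2.12 and 0.591 FPKM in perigonadal WAT and 0 to 0.682 FPKM in BAT, and Slc25a14 at 0 to 0.549 FPKM in inguinal WAT, 0.377 and 0 FPKM in perigonadal WAT and 2.32, 0 and 2.35 FPKM in BAT. Slc25a27 did not exceed 0.403 FPKM. Of 21 tested genes of other mitochondrial transporters and pores, 1 rose as deposited in perigonadal WAT against BAT, where 4.91 percent of all genes rose. None was called in inguinal WAT as deposited, where 1.73 percent of all genes rose and 0.469 percent fell, and 2 were higher there at an unadjusted p under 0.05. The riser was Ucp3, an uncoupling protein of muscle and brown fat, with 8.72, 11.6 and 3.74 FPKM in inguinal WAT, 19.96 and 14.8 FPKM in perigonadal WAT and 2.88, 4.28 and 3.29 FPKM in BAT. Its perigonadal log2(FPKM + 1) difference was 2.03 (SE 0.46, limma adjusted p = 0.00223), lost without perigonadal replicate 1 (adjusted p = 0.126) and without the filter on low values (0.0972). After scaling Ucp3 rose in both, by 0.93 in inguinal WAT and 1.51 in perigonadal WAT (limma adjusted p = 0.033 and 0.00544).

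Among members with other or unassigned substrates, Slc25a46, a protein of the outer mitochondrial membrane, was the most abundant, with 4.45 to 16.3 FPKM in inguinal WAT, 21.9 and 12.4 FPKM in perigonadal WAT and 8.97 to 10.04 FPKM in BAT. Slc25a34, Slc25a35 and Slc25a48 were also tested and not called. Slc25a43, Slc25a45 and Slc25a47 stayed under 1 FPKM in all libraries.

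Carrier proteins reach the inner membrane through the TOM and TIM complexes. None of 13 tested genes of this import machinery was called as deposited against BAT. Over all genes 2.2 percent were called in inguinal WAT and 5.18 percent in perigonadal WAT. At an unadjusted p under 0.05, 1 of the 13 was lower in inguinal WAT against BAT and 0 in perigonadal WAT. After scaling 1 fell in inguinal WAT and 4 fell in perigonadal WAT (Tomm20, Tomm7, Timm8b and Timm13), where 1.53 and 3.0 percent of all genes fell. Timm8b, a small chaperone of the intermembrane space, had 82.7, 58.6 and 29.0 FPKM in inguinal WAT, 54.8 and 42.9 FPKM in perigonadal WAT and 101, 82.8 and 75.6 FPKM in BAT. Its scaled log2 difference was -0.68 in inguinal WAT against BAT and -1.38 in perigonadal WAT against BAT (limma adjusted p = 0.0494 and 0.00303).

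The median difference of the family stood near that of all genes. The median log2(FPKM + 1) difference of the 31 tested members was -0.06 in inguinal WAT against BAT and 0.54 in perigonadal WAT against BAT, beside 0.03 and 0.52 over all genes, and after scaling it was -0.04 and 0.05, beside 0.03 and 0.09. The 29 uncalled members had limma adjusted p-values of 0.643 to 0.997 in inguinal WAT and 0.0802 to 0.932 in perigonadal WAT. As deposited 2 of the 31 lay above BAT in all inguinal libraries and 3 lay below, where 6.81 and 5.37 percent of all tested genes did, and after scaling 4 and 5, where 14.4 and 10.5 percent did. For perigonadal WAT 17 of the 31 lay above BAT in both libraries and 2 lay below, where 48.3 and 3.72 percent of all tested genes did, and after scaling the counts were 7 and 10, where 23.8 and 16.4 percent did. Of the 16 members with a mean of at least 10 FPKM, 10 had a highest scaled value under 2 times their lowest over all 8 libraries, while the ratio was 8.45 for Slc25a1.

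**Figure D5:**
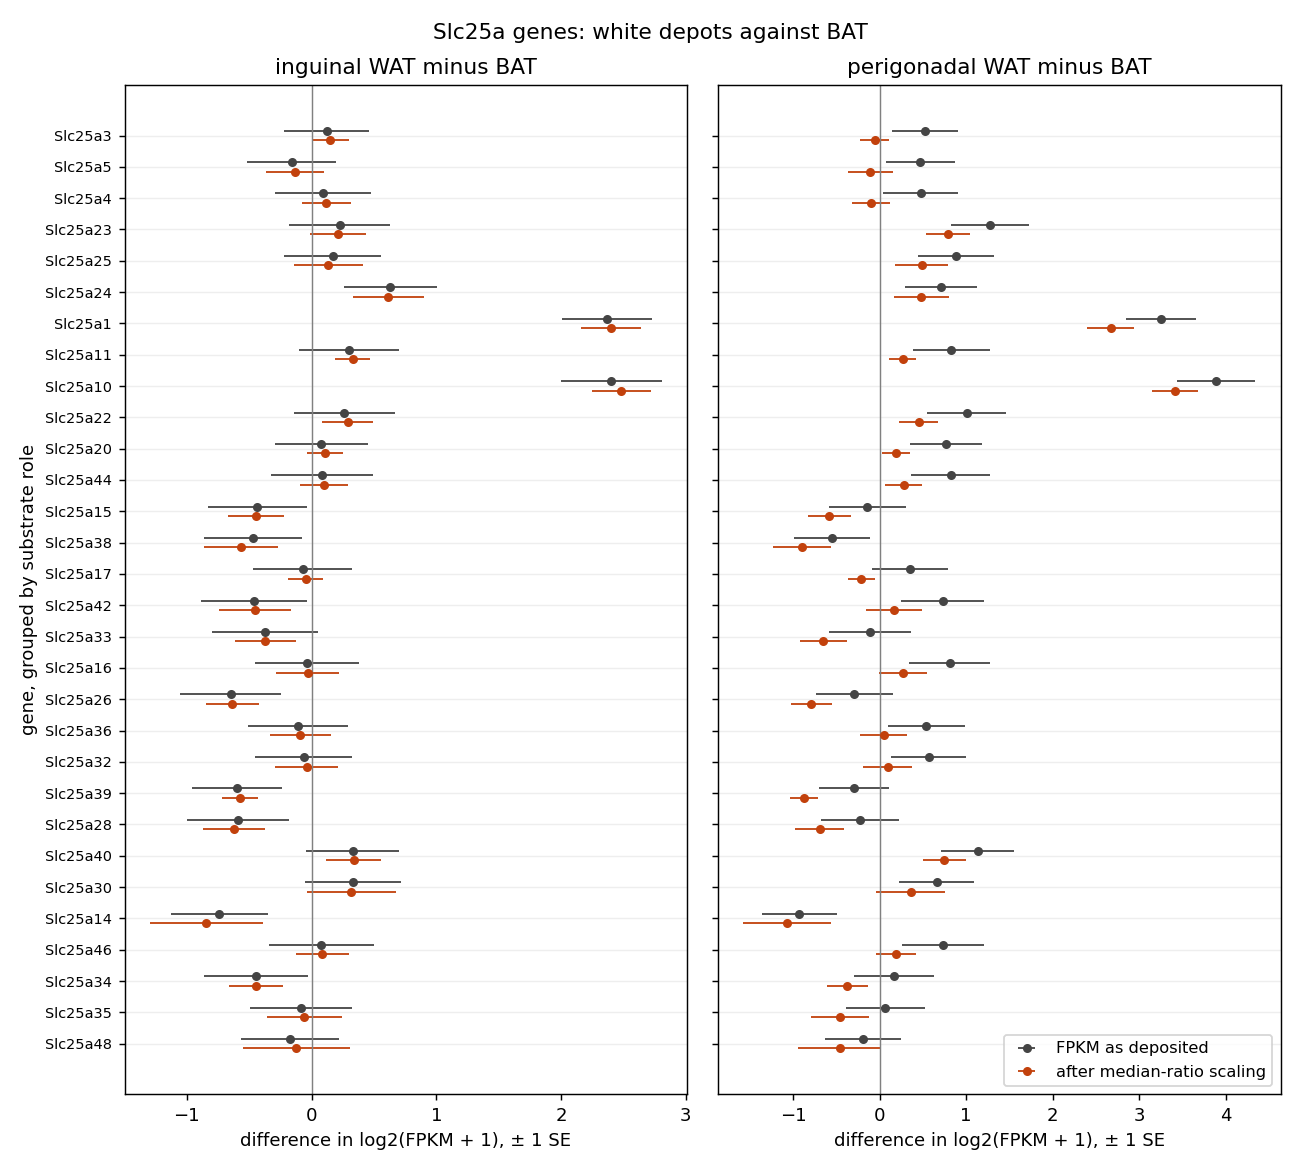
Points give the fitted difference in log2(FPKM + 1) of tested members with bars of 1 SE, inguinal WAT minus BAT on the left and perigonadal WAT minus BAT on the right, grey as deposited and orange after median-ratio scaling. Slc25a1 and Slc25a10 stand apart at 2.37 to 3.89, and in the right panel scaling moves the other members down, with Slc25a39 at -0.88.

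Between the white depots no member was called on either scale, where 0.703 percent of all genes were called as deposited (0.301 percent higher and 0.402 percent lower) and 0.279 percent, all higher, after scaling. Below both perigonadal libraries in every inguinal library were 10 members as deposited and 3 after scaling, where 27.5 and 13.6 percent of all genes were, and above them 0 and 2 members, where 1.44 and 10.3 percent of all genes were. As deposited 0 members were higher and 4 lower in inguinal WAT against perigonadal WAT at an unadjusted p under 0.05, with limma adjusted p-values of 0.122 to 0.985. The difference of Slc25a1 was -0.88 (SE 0.40, limma adjusted p = 0.376) as deposited and -0.27 (SE 0.27, adjusted p = 0.858) after scaling. That of Slc25a10 was -1.48 (SE 0.45, limma adjusted p = 0.122) as deposited and -0.93 (SE 0.26, adjusted p = 0.299) after scaling, with all inguinal libraries below both perigonadal ones on either scale. It was called without inguinal replicate 2 (limma adjusted p = 0.0297), without perigonadal replicate 2 (0.0322) and with a pseudocount of 5 (0.0153). The comparisons of the white depots with BAT share the 3 BAT libraries, so their values are given side by side and not as independent evidence.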

How the data were processed

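Ribosome-bound RNA of UCP1-positive cells was sequenced in 8 libraries. The tissue labels gave the groups and the titles the replicate numbers. Per the submitters' processing notes, reads were handled with TopHat and Cufflinks on mm9, with no versions given. The deposited files hold FPKM per transcript, computed by the authors for 1 library each, with confidence bounds. Any scaling between libraries is not given in the sources used here. The coordinates of genes are those of the files, in mm9.

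FPKM was summed per gene. For genes with a single transcript, fragments were recovered from the deposited FPKM and the upper bound beside it. For low values this gave whole numbers, within 0.05, in 85.8 to 92.9 percent of cases per library. For genes with several transcripts, and for depth, fragments were estimated from FPKM, transcript length and a factor per library. Genes that reached 1 FPKM in 2 or more libraries and have a transcript of 300 nt or longer were tested with limma (3.58.1, R 4.3.3), with a variance trend, on log2(FPKM + 1), two-sided, all 8 libraries in 1 model of 3 groups, with Benjamini-Hochberg adjustment per comparison at 0.05. The main fit, the fits with 1 library left out and the replicate block were made as deposited and after median-ratio scaling. That scaling was found over genes with at least 1 FPKM in all libraries. The other alternatives started from values as deposited. The procedure was tested on simulated data. Tables were made in Python 3.11.15 with pandas 2.3.3 and numpy 2.4.6, and plots with matplotlib 3.10.9. Poisson intervals of pooled fragment ratios are at 95 percent.

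Values in every library are given for members called on either scale, the 10 most abundant members and the paralog sets. Partner lists are named by called genes, at most 4 by abundance, or else by their 2 most abundant genes. Counts of genes by unadjusted p have no share over all genes beside them, so they are a description only. The members, partner lists and markers were chosen with earlier results of these data known. Alternatives were pseudocounts of 0.1 and 5, no filter, a minimum of 5 FPKM, median-ratio scaling, quantile normalization, a fit restricted to the pair of groups compared, the replicate block, the most abundant transcript, no variance trend, and each library left out. Protein sequences were not used here. Results of 1 member are counted in the totals and not reported here.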

Additional observations from a re-analysis of the deposited data

How the results depend on the processing

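The count of called members in inguinal WAT against BAT was 2 as reported and 2 under 17 of 18 alternatives, including every library left out (range 2 to 2), and 0 without a filter on low values. In perigonadal WAT against BAT it was 2 as reported, 4 with median-ratio scaling, 7 in a fit of only the groups compared (Slc25a11, Slc25a20, Slc25a22, Slc25a23 and Slc25a40 added, all higher) and 2 to 8 with 1 library left out. Over all genes 5.18 percent were called as reported and 6.16 percent with median-ratio scaling. The share of all genes in the fit of only the groups compared is not given here, so the 7 has no background beside it. The 8 came without inguinal replicate 3, the shallowest library, where Slc25a44 was called as well and 1326 genes were called in all, against 464 with every library. Between inguinal and perigonadal WAT it was 0 as reported, 1 with a pseudocount of 5 (Slc25a10) and 0 to 1 with 1 library left out. The cause of these changes was not tested.

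The called genes split into 155 higher and 42 lower in inguinal WAT against BAT, 440 and 24 in perigonadal WAT against BAT, and 27 and 36 in inguinal against perigonadal WAT. After median-ratio scaling the splits were 300 and 137, 283 and 269, and 25 and 0. The difference of Slc25a39 in inguinal against perigonadal WAT reversed to 0.30 with median-ratio scaling, 0.18 with quantile normalization and 0.076 without inguinal replicate 3 (range with 1 library left out -0.50 to 0.076). Quantile normalization gave Slc25a39 a call in perigonadal WAT against BAT (-0.62, limma adjusted p = 0.0302).

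Same-numbered libraries correlated in their deviations at 0.126, 0.0804 and 0.1003 between inguinal WAT and BAT, and differently numbered ones at -0.0773 to -0.0329. Same-numbered values were -0.0272 and -0.0871 between the white depots and -0.0136 and -0.0184 between perigonadal WAT and BAT. With 2 perigonadal libraries the deviations are mirror images, so those values bear little on pairing. The labels do not say that equal numbers mark the same mice, and the numbers were not taken to pair the samples. With the replicate block the counts of called members were 2, 2 and 0, and 280, 418 and 88 genes were called in all, against 197, 464 and 63. Every inguinal library correlated best with the BAT library of its own number, which is a hint from the data and not from the design.

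Depth limits the BAT values of Slc25a10, which rest on at most 4 fragments per library.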
